A study of Mus musculus with 18 samples.

Results

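The genes described here are 32 mouse genes that move, store, sense or act on calcium: channels that release it from the endoplasmic reticulum, pumps and exchangers that remove it, proteins of store-operated entry and of mitochondrial uptake, calmodulins, calmodulin-dependent (CaM) kinases and channels of the plasma membrane. They were listed by function, with earlier results of these data known, and all 32 were found among the 22078 genes of the 90-min and the 3-day count tables. They were measured by poly-A RNA sequencing in 18 libraries of cultured cortical astrocytes from mouse brain, 3 libraries in each of 6 groups. In every group, controls included, a plasmid was transfected with HilyMax, and 7 days later the cells were given deschloroclozapine (DCZ), the receptor ligand, at 8 µM for 90 min.

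At 90 min the groups carried hM3Dq, a designer receptor built on the human M3 muscarinic receptor and coupled to Gq, rM3Ds, built on the rat M3 receptor and coupled to Gs, hM4Di, built on the human M4 receptor and coupled to Gi, or the control protein EGFP. At 3 days the groups were hM3Dq and the control protein mCherry, both kept in medium without DCZ after the 90 min of ligand. Because receptor-bearing cells all got DCZ, effects of the receptor itself and of its activation cannot be told apart. The promoter that drives each plasmid and the share of cells that took it up are not given in the sources used here. The labels number the libraries 1 to 3 within a group without saying whether each was its own culture. The p-values therefore set differences against a spread between libraries that may be technical.

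As background, Gq-coupled receptors activate phospholipase C, and the inositol trisphosphate it makes opens channels in the endoplasmic reticulum that let calcium into the cytosol. SERCA pumps refill the store, plasma membrane pumps and sodium-calcium exchangers export calcium, mitochondria take part of it up, and an emptied store is sensed by STIM proteins, which open ORAI channels. Calcium-bound calmodulin switches on CaM kinases. Astrocytes are known for calcium signals of this kind, in which the type 2 inositol trisphosphate receptor has been studied most.

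Library totals were 16067367 to 25222365 counts at 90 min and 16580509 to 19691525 at 3 days. Levels are given as CPM, counts scaled to a common library total with TMM factors, and 3 counts in a library, used as the floor, correspond to 0.119 to 0.187 CPM. At 90 min 3 libraries, EGFP 1, rM3Ds 2 and rM3Ds 3, stood apart from the other 9 on the first principal component, which held 52.4% of the variance, and so did mCherry 3 among the 6 libraries at 3 days (56.2%). In each of those 3 libraries all 12 cell cycle markers were higher than in each of the other 9, with a summed level of 398 to 624 CPM against 118 to 249 CPM. Counted the same way, 2 of 10 neuron markers were higher and 1, Rbfox3, lower (sum 49.2 to 57.4 against 3.76 to 20.1 CPM). Of 10 fibroblast and mural markers 5 were higher and 1 lower (sum 1834 to 2653 against 1774 to 3205 CPM), and of 12 astrocyte markers 3 were higher and 2 lower (sum 689 to 1139 against 915 to 1105 CPM). Of 8 genes of inflamed cultures 5 were lower (sum 858 to 925 against 1508 to 2240 CPM), as were 2 of 9 oligodendrocyte lineage markers (sum 10.3 to 15.4 against 14.45 to 24.7 CPM) and 1 of 7 endothelial markers (sum 12.2 to 19.1 against 25.6 to 45.7 CPM). None of the 8 microglia markers was higher or lower in all 3 (sum 2.55 to 9.60 against 2.17 to 5.42 CPM). In mCherry 3 the genes of inflamed cultures summed to 523 CPM, against 788 to 939 CPM in the other 5 libraries of that time. Compared in the same way, astrocyte markers summed to 754 against 768 to 888 CPM. Fibroblast and mural markers summed to 2368 against 2624 to 3086 CPM, and microglia markers to 4.26 against 6.90 to 9.44 CPM. Sums in mCherry 3 were higher for cell cycle (148 against 108 to 138 CPM) and endothelial markers (73.5 against 61.3 to 66.2 CPM). Its neuron and oligodendrocyte lineage sums lay within the range of the other 5. Of the astrocyte markers Gjb6 was at or below the floor in every library, and Gfap, the classical astrocyte filament, lay at 1.68 to 23.2 CPM. Of the microglia markers Cx3cr1, P2ry12 and Ptprc were at or below the floor in every library, while Tmem119 lay at 1.45 to 9.22 CPM. In bulk RNA of this kind fewer cells of a type and less RNA per cell cannot be told apart.

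Most members were expressed well above the floor. Per kb of merged exons, the calmodulin genes had the highest levels in EGFP cells, with Calm2 at 324 ± 55.0 and Calm3 at 209 ± 9.55 CPM per kb (mean ± SD over 3 libraries, as for all means below). They were followed by Saraf, a brake on store-operated entry, at 139 ± 1.59 CPM per kb, and Atp2a2, the SERCA2 pump that refills the endoplasmic reticulum, at 93.7 ± 5.39 CPM per kb. Among the inositol trisphosphate receptors Itpr1 came first, at 16.8 ± 1.85 CPM per kb, above Itpr3 at 7.69 ± 2.38 and Itpr2 at 5.56 ± 0.96 CPM per kb, and the last pair overlapped within their SD.

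Among the pore subunits of store-operated entry the order in EGFP cells was Orai3 at 19.5 ± 0.42, Orai2 at 12.3 ± 1.04 and Orai1 at 3.08 ± 2.21 CPM per kb. Camk2g at 23.9 ± 2.15 and Camk2d at 15.95 ± 1.60 CPM per kb were the CaM kinase II genes with the higher levels, while Camk2b lay at 0.415 ± 0.107 CPM per kb. In mCherry cells at 3 days the calmodulins again led, with Calm2 at 296 ± 25.7 and Calm3 at 186 ± 52.5 CPM per kb. These levels use a fixed length per gene and say nothing of which isoforms the cells made.

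**Figure D1:**
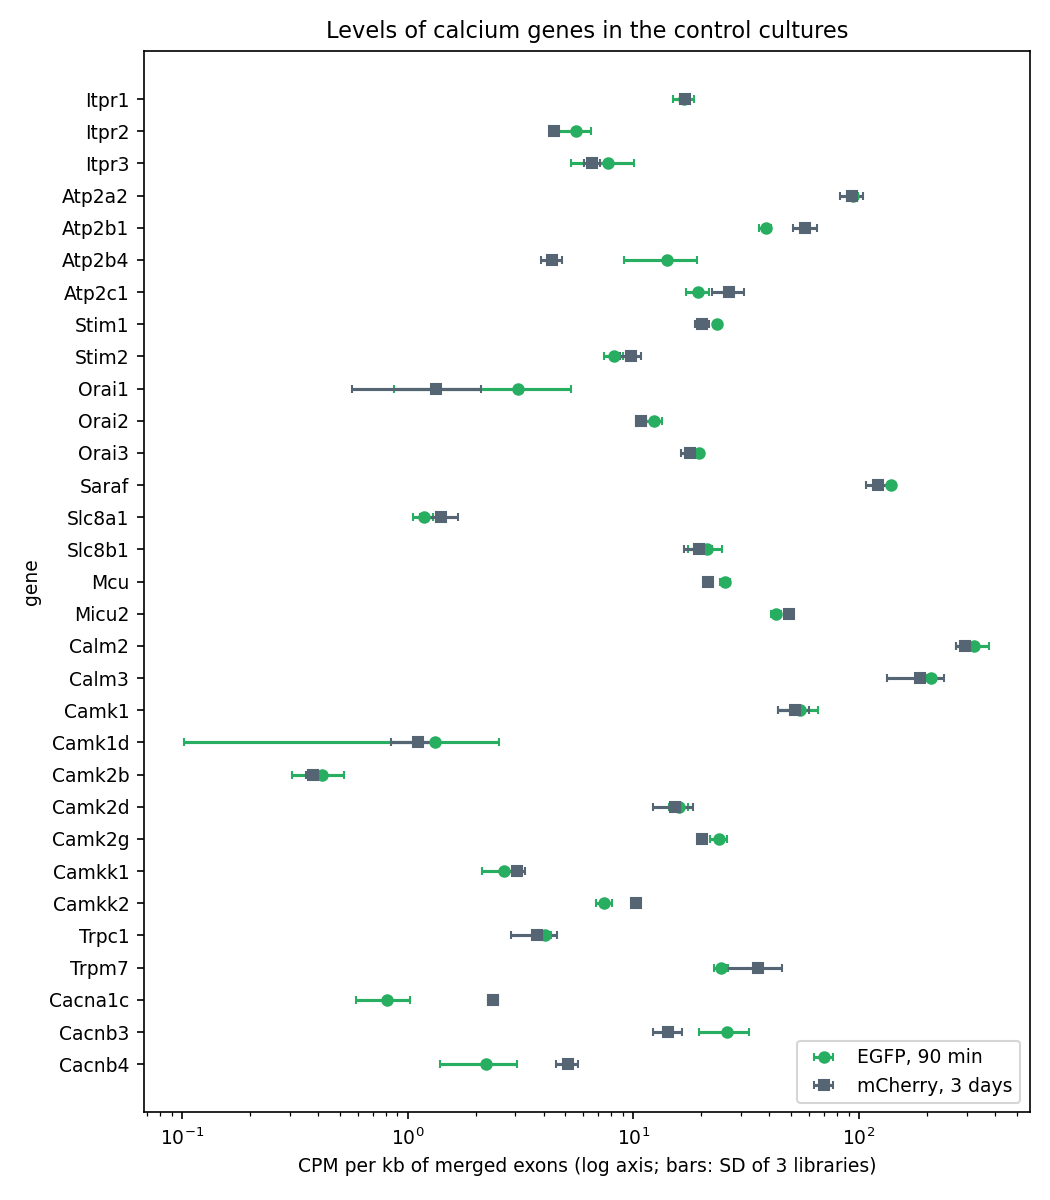
Level of 31 calcium genes per kb of merged exons (log axis) in EGFP cells at 90 min (circles) and mCherry cells at 3 days (squares), as the mean and SD of 3 libraries; Camk4 is not plotted. The calmodulin genes stand furthest right, at 186 to 324 CPM per kb, and Camk2b furthest left.

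The exception was Camk4, a CaM kinase known mainly from neurons and T cells. It had 0, 0 and 0.0509 CPM in hM3Dq libraries, 0, 0.998 and 0.374 CPM in rM3Ds libraries, 0.198, 0 and 0.105 CPM in hM4Di libraries and 0.615, 0.0572 and 0.115 CPM in EGFP libraries 1 to 3, and no count in any of the 6 libraries at 3 days. The 3 highest values were those of the 3 libraries that stood apart. Camk4 did not pass the filter on low counts at either time and was not tested. The other 31 members were tested at both times.

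After 90 min of DCZ the store pump gene Atp2a2 averaged 601 ± 9.27 CPM in hM3Dq cells and 494 ± 28.4 CPM in EGFP cells, and the entry channel gene Orai3 averaged 37.2 ± 0.87 CPM in hM3Dq cells and 41.8 ± 0.906 CPM in EGFP cells. Neither passed the test, and none of the 31 tested members passed edgeR's quasi-likelihood test between hM3Dq and EGFP cells at a Benjamini-Hochberg adjusted p below 0.05, while 107 of the 13584 tested genes did (0.788%). By edgeR 1 member, Atp2a2, had an unadjusted p below 0.05, against 7.94% of all tested genes. DESeq2 called 0 members and 1.72% of the genes it tested. The members' median log2 fold change was -0.04, against -0.003 over all tested genes. In 3 members, Atp2a2, Atp2c1 and Saraf, every hM3Dq library lay above every EGFP library, as it did in 8.26% of all tested genes, and in Orai3 and Micu2 every hM3Dq library lay below (6.5% of all tested genes). Among 31 members these counts are near the share in all genes, and nothing about the members as a group is read from them. For Atp2c1 the groups all but touched, with 128.79 CPM in hM3Dq 2 and 128.787 CPM in EGFP 2. Micu2 was also close, with 94.53 CPM in hM3Dq 3 and 94.69 CPM in EGFP 2. The 95% interval of the fold change lay within 2-fold in either direction for 28 members, and for 21 within 1.5-fold. It reached beyond 2-fold for Orai1, Camk1d and Camk2b, so for these genes the libraries do not limit the change to less than that.

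The other receptors gave the same count against EGFP. With rM3Ds 0 members were called by edgeR (0.0147% of all tested genes) and 0 by DESeq2, and 3 had an unadjusted p below 0.05 in edgeR, namely Atp2b1, Mcu and Micu2 (4.23% of all tested genes). With hM4Di 0 members were called by edgeR (0% of all tested genes) and 0 by DESeq2, and 2, Atp2b1 and Orai3, had an unadjusted p below 0.05 in edgeR (5.48%). Every rM3Ds library lay above every EGFP library in 1 member, Slc8a1 (3.9% of all tested genes), and below in 2, Atp2b1 and Micu2 (3.61%). Every hM4Di library lay above every EGFP library in 2 members, Orai2 and Orai3 (4.05%), and below in 1, Atp2b1 (4.47%). The members' median log2 fold change was -0.05 with rM3Ds and -0.08 with hM4Di, against -0.02 and -0.01 over all tested genes. All genes that DESeq2 called in each comparison are counted in the section on how the results depend on the processing. The 3 comparisons share the EGFP libraries and are not independent of each other.

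Between receptors, too, edgeR called 0 members: the share of all tested genes called was 0.802% for hM3Dq against hM4Di, 0.67% for hM3Dq against rM3Ds and 0.0147% for rM3Ds against hM4Di. In edgeR 5 members had an unadjusted p below 0.05 in each of these comparisons, where 11.4%, 14.2% and 9.97% of all tested genes did, in the same order. DESeq2 called 3 members in hM3Dq against hM4Di, namely Atp2a2, Atp2b1 and Orai3 (3.8% of the genes it tested), and 2 in hM3Dq against rM3Ds, namely Atp2b1 and Mcu (3.42%). It called 0 in rM3Ds against hM4Di, where all genes it called are counted in the section on processing.

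The members whose groups did not overlap were also counted between receptors. Every hM3Dq library lay above every hM4Di library in 6 members, or 19.4% of them (11.3% of all tested genes), and below in 2, or 6.45% (8.82%). Against rM3Ds these counts were 7 members above, or 22.6% (11.4%), and 2 below, or 6.45% (10.4%). Whether these shares differ from those in all genes was not tested. In 3 members, Orai3, Micu2 and Camkk1, every rM3Ds library lay below every hM4Di library (5.19%), and in 0 above (5.84%). Of the 4 pump genes all 4 lay above hM4Di in every hM3Dq library, and 3 of 4 lay above rM3Ds. For Atp2b4 the margin was small, with 177.5 CPM in hM3Dq 3 and 175.9 CPM in hM4Di 1. The others above hM4Di were 1 CaM kinase and 1 membrane channel gene. Above rM3Ds there was also 1 gene each of entry, mitochondrial uptake, CaM kinases and membrane channels. Whether the pumps differ from the other roles was not tested.

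**Figure D2:**
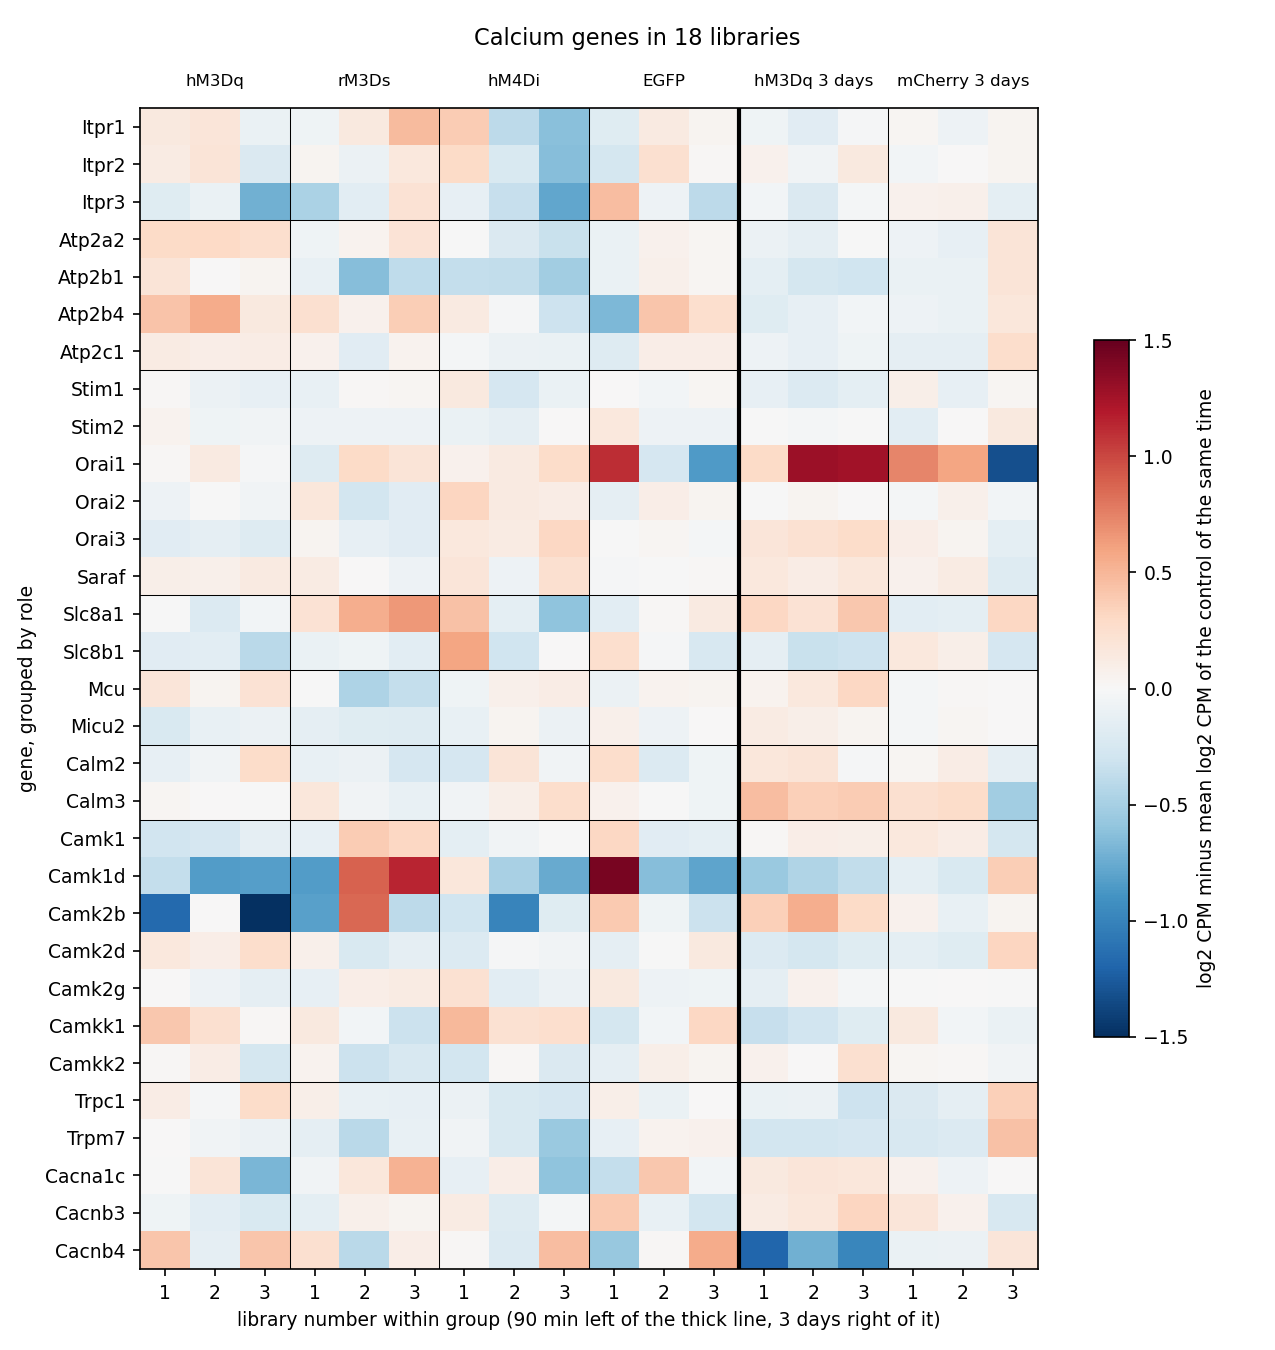
Log2 CPM of 31 calcium genes in each of 18 libraries, minus the mean of the control group of the same time (EGFP or mCherry); colours beyond the ends of the scale take the end colour, and Camk4 is left out. EGFP 1, rM3Ds 2 and rM3Ds 3 share high Camk1d, and the 3 hM3Dq libraries at 3 days share low Cacnb4.

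At 3 days the channel subunit gene Cacnb4 averaged 23.1 ± 3.77 CPM in hM3Dq cells and 44.7 ± 5.01 CPM in mCherry cells, the largest fold change of the 31 tested members in that comparison, and Orai3 averaged 44.9 ± 1.44 CPM in hM3Dq cells and 38.4 ± 3.35 CPM in mCherry cells. EdgeR again called 0 of the 31 tested members between hM3Dq and mCherry cells, and 0 of all 12807 tested genes (0%). By edgeR 3 members, Orai3, Camk1d and Cacnb4, had an unadjusted p below 0.05, against 12% of all tested genes, and DESeq2 called 1 member, Cacnb4 (1.22% of the genes it tested). The groups did not overlap in 6 members with hM3Dq above (12.1% of all tested genes) and in 7 with hM3Dq below (13%). That is 19.4% and 22.6% of the members, above the shares in all genes, and whether the members differ from other genes in this was not tested. Without mCherry 3, the library that stood apart, edgeR called 1257 genes (9.72%) and 3 of the 31 members, Cacnb4, Slc8a1 and Slc8b1, again a share near that of all genes.

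The difference between the hM3Dq effect at 3 days and that at 90 min, each against its own control, was tested as an interaction. EdgeR called 0 members, with 0.396% of all tested genes called. DESeq2 also called 0, and all genes it called are counted in the section on processing. In edgeR 4 members had an unadjusted p below 0.05, namely Atp2a2, Orai3, Camk2d and Cacnb4, against 9.73% of all tested genes. Without the 4 libraries that stood apart edgeR called 501 genes (3.72%) and 1 member, Slc8a1.

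**Figure D3:**
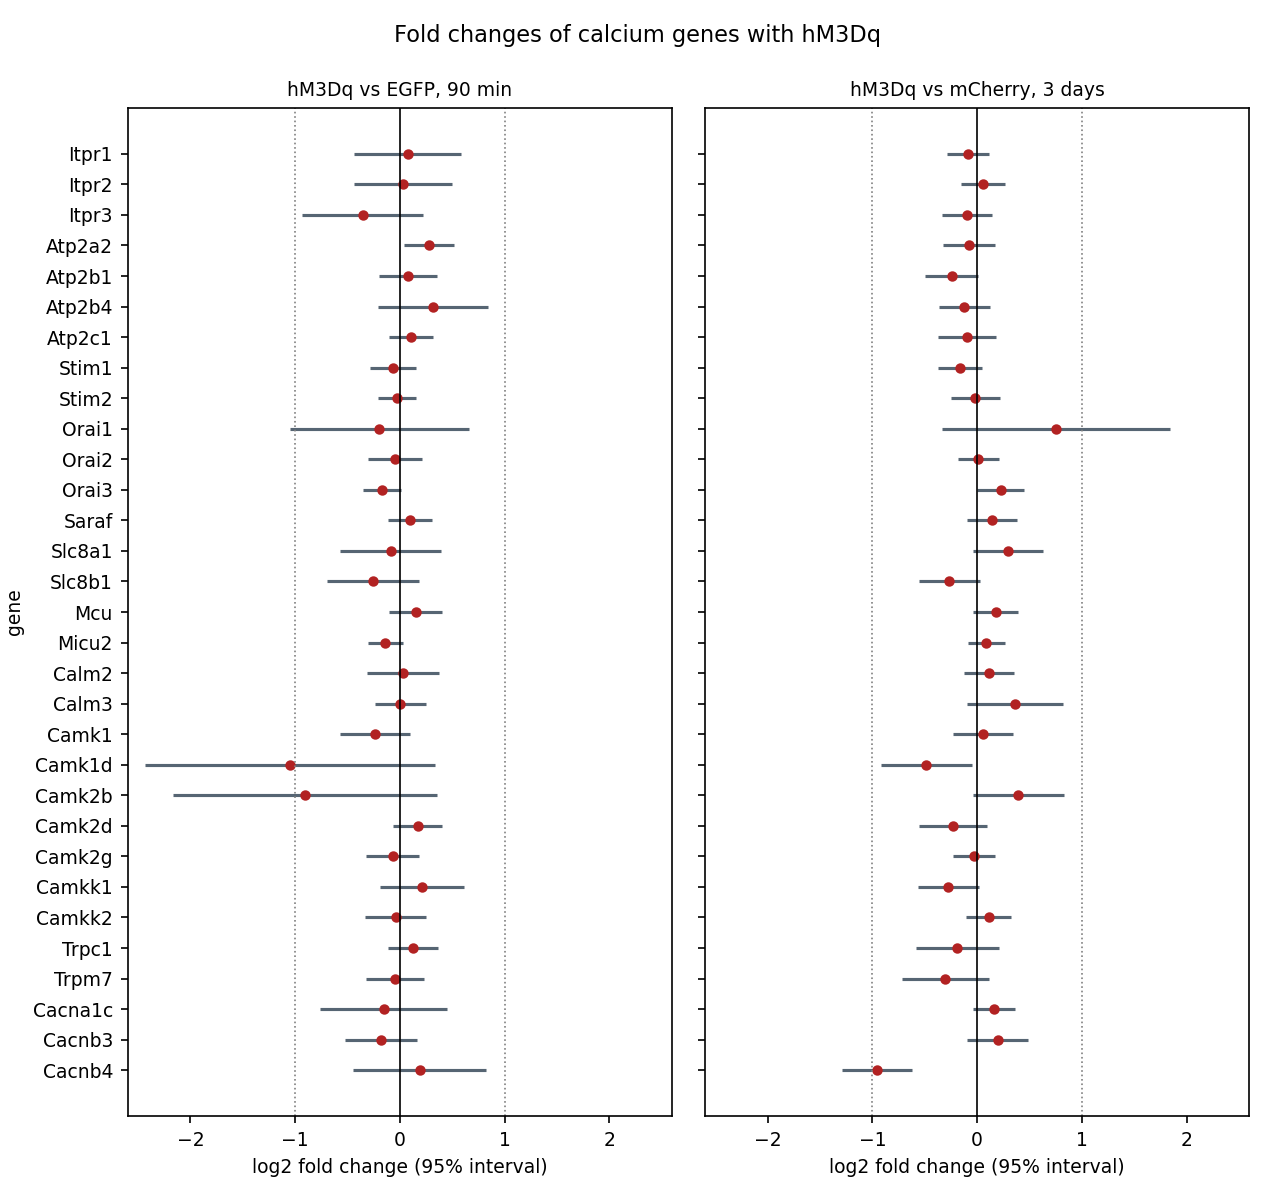
Log2 fold change of 31 calcium genes for hM3Dq over EGFP at 90 min (left) and hM3Dq over mCherry at 3 days (right), with the 95% interval from edgeR; dotted lines mark 2-fold. Most intervals lie between the dotted lines, and the interval of Cacnb4 at 3 days lies wholly below 0.

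The inositol trisphosphate receptors, the release channels that stand downstream of Gq and phospholipase C, did not pass the test in either comparison of hM3Dq with its control. Itpr1 had 182, 187 and 154 CPM in hM3Dq libraries and 146, 181 and 169 CPM in EGFP libraries, a log2 fold change of 0.08 ± 0.23 (± SE, as for all log2 fold changes). Itpr3 had 59.05, 62.7 and 40.8 CPM in hM3Dq libraries and 92.6, 63.8 and 50.9 CPM in EGFP libraries, a log2 fold change of -0.35 ± 0.26 (edgeR adjusted p = 0.842). The groups overlapped in both genes, and EGFP 1 was the highest Itpr3 library of its group. Itpr2, the form most studied in astrocytes, averaged 66.9 ± 9.68 CPM in hM3Dq cells and 65.5 ± 11.3 CPM in EGFP cells.

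Of the 12 libraries at 90 min all 3 receptor genes were lowest in hM4Di 3, and Itpr1 had 215, 126 and 107 CPM in hM4Di libraries. At 3 days Itpr1 had 157 ± 8.79 CPM in hM3Dq cells and 167 ± 7.38 CPM in mCherry cells, a log2 fold change of -0.09 ± 0.09, and Itpr3 had 55.3 ± 3.98 and 59.1 ± 4.90 CPM in those groups, a log2 fold change of -0.10 ± 0.10. The 95% interval of the 3-day change was -0.28 to 0.11 for Itpr1 and -0.33 to 0.14 for Itpr3.

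Among the pumps, Atp2a2 had the smallest p of the 31 members for hM3Dq over EGFP. It had 605, 607 and 590.0 CPM in hM3Dq libraries, 473, 511 and 570.4 CPM in rM3Ds libraries, 490.0, 424 and 392.4 CPM in hM4Di libraries and 462, 515 and 506 CPM in EGFP libraries. The 3 hM3Dq libraries were the highest of the 12, and the hM4Di libraries included the lowest 2. On the log2 scale hM3Dq was 0.28 ± 0.11 over EGFP (edgeR adjusted p = 0.542) and 0.46 ± 0.11 over hM4Di (edgeR adjusted p = 0.089). The second of these passed in DESeq2 (adjusted p = 0.00097) and, among the alternatives run in edgeR, when hM4Di 1 was left out, at 0.57 with an adjusted p of 0.0417 (0.768% of genes called).

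At 3 days Atp2a2 had 462, 449 and 488 CPM in hM3Dq libraries and 467, 452 and 559.9 CPM in mCherry libraries, and the groups overlapped. The log2 fold change of -0.08 ± 0.11 became 0.02 without mCherry 3. The hM3Dq effect on Atp2a2 was -0.35 ± 0.14 at 3 days minus 90 min (edgeR adjusted p = 0.461). It did not pass the test.

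Atp2b1, a pump that exports calcium across the plasma membrane, was lower in rM3Ds and hM4Di libraries than in EGFP libraries, by a margin that did not pass the edgeR test. It had 313, 275 and 283 CPM in hM3Dq libraries, 255, 176 and 211 CPM in rM3Ds libraries, 215, 212 and 192 CPM in hM4Di libraries and 256, 288 and 280.1 CPM in EGFP libraries. Every rM3Ds and hM4Di library lay below every EGFP library, while hM3Dq and EGFP overlapped. For rM3Ds the margin was small, with 255 CPM in rM3Ds 1 and 256 CPM in EGFP 1. The clearly lower rM3Ds libraries were rM3Ds 2 and rM3Ds 3, which stood apart, and their part in the difference was not tested. Log2 fold changes of Atp2b1 were 0.08 ± 0.13 for hM3Dq, -0.36 ± 0.13 for rM3Ds (edgeR adjusted p = 1) and -0.42 ± 0.13 for hM4Di (edgeR adjusted p = 0.833), each over the same EGFP libraries.

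Set directly against each other, hM3Dq over hM4Di gave 0.49 ± 0.13 for Atp2b1 (edgeR adjusted p = 0.116, DESeq2 adjusted p = 0.0101). Without the 3 libraries that stood apart it passed in edgeR at 0.50 (adjusted p = 0.0322, 2.16% of genes called). Those 3 libraries belong to neither group, so leaving them out changed only the filter, the scaling and the shared spread of the joint fit. Over rM3Ds the value for hM3Dq was 0.44 ± 0.13 (edgeR adjusted p = 0.168, DESeq2 adjusted p = 0.0347), and without rM3Ds 1 it was 0.58 (edgeR adjusted p = 0.0241, 4.27% of genes called). Both remaining rM3Ds libraries were then ones that stood apart with high cell cycle markers, and the part of these markers, and of the other marker lists that moved with these libraries, in the result was not tested. At 3 days Atp2b1 had 370.5, 342 and 334 CPM in hM3Dq libraries and 385, 384 and 471 CPM in mCherry libraries. Every hM3Dq library lay below every mCherry library, at a log2 fold change of -0.24 ± 0.11 (edgeR adjusted p = 0.424).

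The first of the Atp2b1 promoters in the RefSeq table is shown because Atp2b1 was the member that DESeq2 called in both comparisons between hM3Dq and another receptor. The sequence is the 250 bases before the start, chr10:98914392-98914641 of GRCm38.p6, plus strand, written 5′ to 3′, and the capitals mark the core of NFAT sites, GGAAA or its reverse complement. NFAT is a transcription factor that calcium and calcineurin bring into the nucleus.
Atp2b1: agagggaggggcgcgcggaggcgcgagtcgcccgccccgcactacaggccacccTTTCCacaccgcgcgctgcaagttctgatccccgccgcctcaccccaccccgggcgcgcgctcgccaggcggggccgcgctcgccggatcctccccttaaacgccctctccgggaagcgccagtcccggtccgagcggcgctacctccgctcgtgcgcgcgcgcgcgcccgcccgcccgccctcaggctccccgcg
The 1 match lies 196 to 192 bases before the start on the minus strand. The second Atp2b1 promoter, chr10:98914902-98915151, is not shown and held no NFAT core.

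The other 2 pumps, Atp2b4 of the plasma membrane and Atp2c1 of the Golgi, averaged 209.6 ± 29.4 and 130.0 ± 1.25 CPM in hM3Dq cells and 169 ± 60.2 and 121 ± 13.7 CPM in EGFP cells. The Atp2b4 libraries of EGFP had 100.3, 214 and 192 CPM, and the first of these, the one that stood apart, was the lowest of the 12. Atp2c1 libraries lay close together, with hM3Dq at 129 to 131 CPM, and the 3 hM3Dq libraries lay above the 3 hM4Di libraries at 113 to 118 CPM. At 3 days both genes overlapped between hM3Dq and mCherry.

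**Figure D4:**
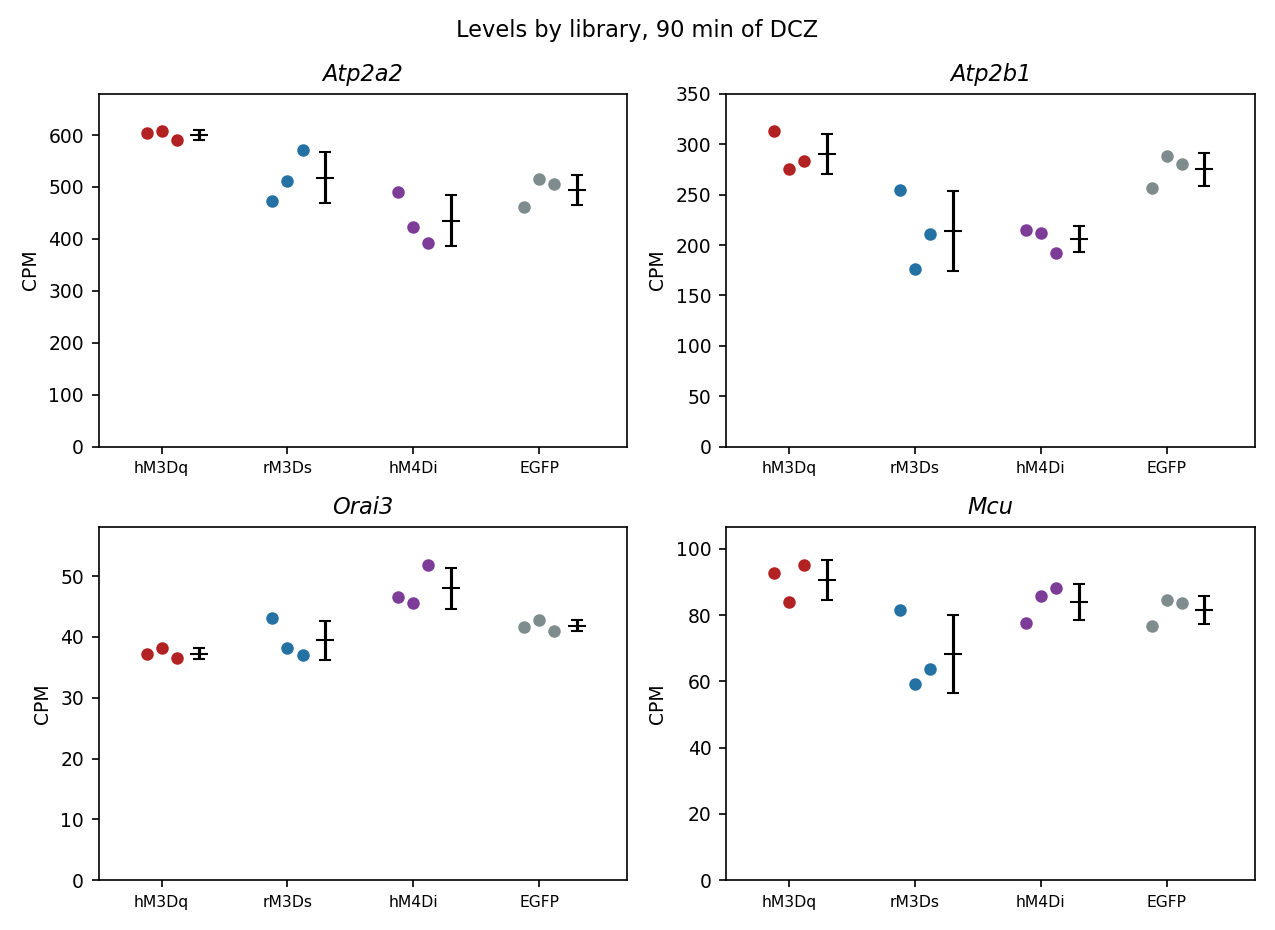
CPM of Atp2a2, Atp2b1, Orai3 and Mcu in the 3 libraries of each group after 90 min of DCZ (points), with mean and SD beside them. Atp2a2 is highest in the hM3Dq libraries and Orai3 in the hM4Di libraries. Atp2b1 is low in hM4Di libraries and in rM3Ds libraries 2 and 3, and Mcu is low in rM3Ds libraries 2 and 3.

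Of the store-operated entry genes, Orai3, which forms a pore of calcium entry channels, was highest with hM4Di. It had 37.1, 38.2 and 36.4 CPM in hM3Dq libraries, 43.1, 38.2 and 37.05 CPM in rM3Ds libraries, 46.6, 45.6 and 51.8 CPM in hM4Di libraries and 41.6, 42.8 and 41.03 CPM in EGFP libraries. The hM4Di libraries were the highest 3 of the 12, and every hM3Dq library lay below every EGFP library. In log2 fold change this was -0.17 ± 0.08 for hM3Dq over EGFP (edgeR adjusted p = 0.676) and 0.20 ± 0.08 for hM4Di over EGFP (edgeR adjusted p = 0.833). For hM3Dq over hM4Di it was -0.37 ± 0.08 (edgeR adjusted p = 0.0752), which passed in DESeq2 (adjusted p = 0.00511), and for rM3Ds over hM4Di it was -0.28 ± 0.08 (edgeR adjusted p = 0.286).

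At 3 days the order of hM3Dq and control was the other way round. Orai3 had 43.4, 44.8 and 46.3 CPM in hM3Dq libraries and 41.1, 39.3 and 34.6 CPM in mCherry libraries, so that every hM3Dq library lay above every mCherry library, at a log2 fold change of 0.23 ± 0.10 (edgeR adjusted p = 0.414). The difference between the times was 0.40 ± 0.12 (edgeR adjusted p = 0.277) and did not pass. The lowest of the 3 mCherry libraries was mCherry 3.

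The Orai3 promoter is shown for a gene whose hM3Dq and control libraries did not overlap at either time. Micu2 was a further such member, and its promoter is not shown. The sequence is the 250 bases before the start, chr7:127769565-127769814 of GRCm38.p6, plus strand, from RefSeq, with the NFAT core in capitals as above.
Orai3: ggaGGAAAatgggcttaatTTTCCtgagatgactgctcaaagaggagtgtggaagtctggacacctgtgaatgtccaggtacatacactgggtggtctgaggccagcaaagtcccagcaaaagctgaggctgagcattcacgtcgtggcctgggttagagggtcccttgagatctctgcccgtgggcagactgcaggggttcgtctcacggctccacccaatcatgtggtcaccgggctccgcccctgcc
The matches lie 247 to 243 bases before the start on the plus strand and 231 to 227 bases before it on the minus strand.

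None of the other entry genes lay on opposite sides of its control at the 2 times without overlap. Stim1 and Stim2, the sensors of an emptied store, averaged 99.6 ± 5.47 and 40.05 ± 1.65 CPM in hM3Dq cells and 104 ± 2.71 and 40.7 ± 3.85 CPM in EGFP cells. At 3 days Stim1 had 82.3, 77.6 and 81.01 CPM in hM3Dq libraries, each below the mCherry libraries at 95.7, 82.6 and 91.3 CPM, with an edgeR adjusted p of 0.478. Orai2, a further pore subunit, had 62.7, 55.1 and 54.2 CPM in hM4Di libraries, each above the EGFP libraries at 45.5, 53.8 and 51.4 CPM.

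Orai1, the best known pore of store-operated entry, varied widely between libraries. It had 4.96, 5.38 and 4.84 CPM in hM3Dq libraries and 10.5, 4.12 and 2.71 CPM in EGFP libraries, and 2.56, 5.11 and 5.04 CPM in hM3Dq libraries and 3.48, 3.18 and 0.841 CPM in mCherry libraries at 3 days. EGFP 1 was the highest and mCherry 3 the lowest of all 18 libraries. Saraf had 274, 272 and 283 CPM in hM3Dq libraries and 255, 258 and 261 CPM in EGFP libraries, where every hM3Dq library was higher (edgeR adjusted p = 0.922).

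The exchanger Slc8a1, which swaps sodium for calcium at the plasma membrane, was high in the rM3Ds group. It had 21.7, 18.9 and 21.2 CPM in hM3Dq libraries, 25.4, 31.9 and 34.2 CPM in rM3Ds libraries, 29.6, 19.7 and 14.4 CPM in hM4Di libraries and 19.6, 22.1 and 24.1 CPM in EGFP libraries. Every rM3Ds library lay above every EGFP library, at a log2 fold change of 0.48 ± 0.22 (edgeR adjusted p = 1), and the 2 highest were rM3Ds 2 and rM3Ds 3, which stood apart. EGFP 1, the other library that stood apart, was the lowest of its group.

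At 3 days Slc8a1 had 31.9, 29.8 and 33.9 CPM in hM3Dq libraries and 23.1, 23.2 and 31.8 CPM in mCherry libraries, and mCherry 3 lay among the hM3Dq libraries. Its log2 fold change was 0.29 ± 0.14 (edgeR adjusted p = 0.442). Without mCherry 3 it was 0.47 and passed in edgeR (adjusted p = 0.00285), where 1257 genes were called. The difference between the times was 0.39 ± 0.19 (edgeR adjusted p = 0.558) and passed without the 4 libraries that stood apart, at 0.63 (edgeR adjusted p = 0.00999).

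Slc8b1, the exchanger that carries calcium out of mitochondria, had 54.03, 54.7 and 46.02 CPM in hM3Dq libraries and 72.7, 60.4 and 51.6 CPM in EGFP libraries, a log2 fold change of -0.26 ± 0.20. At 3 days it had 51.4, 44.8 and 45.7 CPM in hM3Dq libraries and 63.3, 59.9 and 47.6 CPM in mCherry libraries, a log2 fold change of -0.27 ± 0.13 (edgeR adjusted p = 0.433). The groups overlapped at both times, at 3 days through mCherry 3 alone. Without mCherry 3 the 3-day value was -0.38 and passed in edgeR (adjusted p = 0.00422).

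Of the mitochondrial genes, Mcu codes for the pore of the calcium uniporter and Micu2 for a regulatory subunit that senses calcium. Mcu had 92.8, 83.8 and 95.1 CPM in hM3Dq libraries, 81.5, 59.2 and 63.8 CPM in rM3Ds libraries, 77.7, 85.7 and 88.2 CPM in hM4Di libraries and 76.7, 84.6 and 83.5 CPM in EGFP libraries. The lowest values were those of rM3Ds 2 and rM3Ds 3, while EGFP 1 had the lowest value outside the rM3Ds group. The log2 fold change of rM3Ds over EGFP was -0.26 ± 0.12 (edgeR adjusted p = 1).

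For hM3Dq over rM3Ds the Mcu value was 0.41 ± 0.12 (edgeR adjusted p = 0.165), which passed in DESeq2 (adjusted p = 0.047) and, without rM3Ds 1, in edgeR at 0.55 (adjusted p = 0.0148). For rM3Ds over hM4Di it was -0.30 ± 0.12 (edgeR adjusted p = 0.418), and without rM3Ds 1 it was -0.45 (edgeR adjusted p = 0.0405, 2.83% of genes called). In all 3 libraries that stood apart Mcu lay below the other 9, as did Orai2 among the members and 8.66% of all tested genes. The part of the cell cycle markers, and of the other marker lists that moved with these libraries, in this result was not tested.

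For hM3Dq over EGFP the Mcu value was 0.15 ± 0.12, and at 3 days over mCherry it was 0.18 ± 0.09 (edgeR adjusted p = 0.466). At 3 days Mcu had 71.4, 76.6 and 85.3 CPM in hM3Dq libraries and 67.6, 69.5 and 69.3 CPM in mCherry libraries, each hM3Dq library being above each mCherry library. Micu2 had 85.3, 92.98 and 94.5 CPM in hM3Dq libraries and 106, 94.7 and 100.5 CPM in EGFP libraries at 90 min, and 125, 121 and 118 CPM in hM3Dq libraries and 112, 117 and 114 CPM in mCherry libraries at 3 days. Every hM3Dq library was thus below the control libraries at 90 min and above them at 3 days. The log2 fold changes were -0.14 ± 0.08 (edgeR adjusted p = 0.722) and 0.09 ± 0.08 (edgeR adjusted p = 0.606), and the difference between them, 0.23 ± 0.11, did not pass (edgeR adjusted p = 0.519).

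The Mcu promoter is shown because it held the only match to the AP-1 motif among the members' promoters. AP-1 is the factor formed by Fos and Jun proteins. The sequence is the 250 bases before the start, chr10:59616693-59616942 of GRCm38.p6, minus strand, from RefSeq, with the motif TGANTCA in capitals.
Mcu: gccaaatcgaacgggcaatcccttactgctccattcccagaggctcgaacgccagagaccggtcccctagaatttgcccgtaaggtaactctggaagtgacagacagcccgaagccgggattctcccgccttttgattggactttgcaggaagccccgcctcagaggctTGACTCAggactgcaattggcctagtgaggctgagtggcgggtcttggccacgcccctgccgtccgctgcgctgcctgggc
The match lies 81 to 75 bases before the start.

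Motifs were counted on either strand in the 250 bases before the start of 33 promoters, which the table held for 25 of the 32 members. The cAMP response element TGACGTCA was found in 0 of 33 (1.55% of all 32851 promoters), AP-1 in 1 (6.75%), the NFAT core in 15 (55.6%) and the endoplasmic reticulum stress element (CCAAT and CCACG spaced by 9 bases) in 0 (0.113%). The NFAT core is short and common, and a match is a run of letters, not a binding site. The start and the coordinates are those of the reference table, while the counts were made on mm39.

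The calmodulin genes code for the same protein, and how reads were split between near-identical paralogs is not stated, so their separate levels are uncertain. Calm2 had 356, 373 and 468 CPM in hM3Dq libraries and 465, 337 and 370.5 CPM in EGFP libraries, and Calm3 had 488, 478 and 475 CPM in hM3Dq libraries and 501, 477 and 457 CPM in EGFP libraries. The groups overlapped in both genes, with log2 fold changes of 0.03 ± 0.16 for Calm2 and 0.01 ± 0.11 for Calm3. At 3 days Calm2 had 400.0, 406 and 352 CPM in hM3Dq libraries and 362, 385 and 323 CPM in mCherry libraries, a log2 fold change of 0.11 ± 0.10. Calm3 had 570.5, 529.9 and 537 CPM in hM3Dq libraries and 488, 501 and 287 CPM in mCherry libraries, with every hM3Dq library above and mCherry 3 far below the rest, at 0.36 ± 0.20 (edgeR adjusted p = 0.478).

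Among the CaM kinases, Camk1d had the lowest fold change for hM3Dq over EGFP, and it followed 1 EGFP library. It had 5.58, 3.99 and 4.02 CPM in hM3Dq libraries, 3.99, 13.2 and 15.8 CPM in rM3Ds libraries, 8.03, 5.11 and 4.22 CPM in hM4Di libraries and 19.3, 4.58 and 4.15 CPM in EGFP libraries. The 3 highest of the 12 were EGFP 1, rM3Ds 2 and rM3Ds 3, the libraries that stood apart. The log2 fold change of -1.05 ± 0.63 over EGFP (edgeR adjusted p = 0.755) became 0.05 without EGFP 1.

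Camk1, another kinase of the same class, was also highest in those libraries, with 66.6, 67.99 and 73.7 CPM in hM3Dq libraries, 74.1, 106 and 100.5 CPM in rM3Ds libraries, 72.95, 77.8 and 80.8 CPM in hM4Di libraries and 101, 71.9 and 73.3 CPM in EGFP libraries. Camk1, Camk1d and Camk4 were the 3 of 32 members that lay above the other 9 libraries in all 3, as 10.6% of all tested genes did. For hM3Dq over rM3Ds the Camk1 log2 fold change was -0.43 ± 0.15 (edgeR adjusted p = 0.248), and without rM3Ds 1 it was -0.58 (edgeR adjusted p = 0.0412, 4.27% of genes called). The part of the cell cycle markers, all 12 of which moved with these libraries, and of the other marker lists that moved with them, was not tested. At 3 days Camk1d had 5.22, 5.63 and 5.96 CPM in hM3Dq libraries and 6.96, 6.60 and 9.98 CPM in mCherry libraries, each hM3Dq library below each mCherry library, at -0.49 ± 0.19 (edgeR adjusted p = 0.379).

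The CaM kinase II genes and the upstream kinases overlapped between hM3Dq and EGFP libraries. Camk2d had 151, 145 and 162 CPM in hM3Dq libraries, 143, 116 and 123 CPM in rM3Ds libraries, 117, 134 and 131 CPM in hM4Di libraries and 123, 135 and 150.2 CPM in EGFP libraries. Every hM3Dq library lay above every rM3Ds and hM4Di library, with a log2 fold change over hM4Di of 0.27 ± 0.11 (edgeR adjusted p = 0.358). At 3 days Camk2d had 112, 107 and 113.5 CPM in hM3Dq libraries and 116, 113.9 and 161 CPM in mCherry libraries, where every hM3Dq library lay below. The groups all but touched, at hM3Dq 3 and mCherry 2.

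Camk2g averaged 87.1 ± 4.24 CPM in hM3Dq cells and 91.3 ± 8.21 CPM in EGFP cells, and Camk2b, the form known from neurons, averaged 0.992 ± 0.747 CPM in hM3Dq cells and 1.84 ± 0.475 CPM in EGFP cells. Of the kinases that activate CaM kinases, Camkk1 averaged 10.6 ± 1.43 CPM in hM3Dq cells and 9.17 ± 1.86 CPM in EGFP cells, and Camkk2 averaged 37.5 ± 4.82 CPM and 38.6 ± 3.11 CPM in those groups. At 3 days Camkk1 had 8.14, 8.51 and 9.16 CPM in hM3Dq libraries, each below the mCherry libraries at 11.5, 10.1 and 9.70 CPM (edgeR adjusted p = 0.429). Camk2b had 2.15, 2.46 and 2.06 CPM in hM3Dq libraries, each above the mCherry libraries at 1.77, 1.56 and 1.74 CPM (edgeR adjusted p = 0.435).

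The member with the smallest p at 3 days was Cacnb4, a beta subunit that brings voltage-gated calcium channels to the membrane. At 3 days it had 19.6, 27.1 and 22.6 CPM in hM3Dq libraries and 41.7, 41.9 and 50.5 CPM in mCherry libraries. The lowest mCherry library lay above the highest hM3Dq library by more than the range of either group. The log2 fold change was -0.95 ± 0.14, with a 95% interval of -1.29 to -0.62 (edgeR adjusted p = 0.199). DESeq2 called it (adjusted p = 2.35e-05), and in edgeR it passed without mCherry 3, at -0.86 (adjusted p = 0.000705).

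At 90 min Cacnb4 had 24.7, 16.8 and 24.7 CPM in hM3Dq libraries, 21.7, 13.9 and 19.7 CPM in rM3Ds libraries, 18.7, 15.97 and 25.5 CPM in hM4Di libraries and 12.4, 18.7 and 27.02 CPM in EGFP libraries. The 4 groups overlapped, and the spread within EGFP was the widest. The log2 fold change for hM3Dq over EGFP was 0.19 ± 0.29 and became -0.05 without EGFP 1. The difference between the times was -1.14 ± 0.35 (edgeR adjusted p = 0.294). Across all 18 libraries the 3 mCherry libraries had the highest levels, with hM3Dq at 3 days at 19.6 to 27.1 CPM and the 90-min libraries at 12.4 to 27.02 CPM, though the 2 times come from separate tables.

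**Figure D5:**
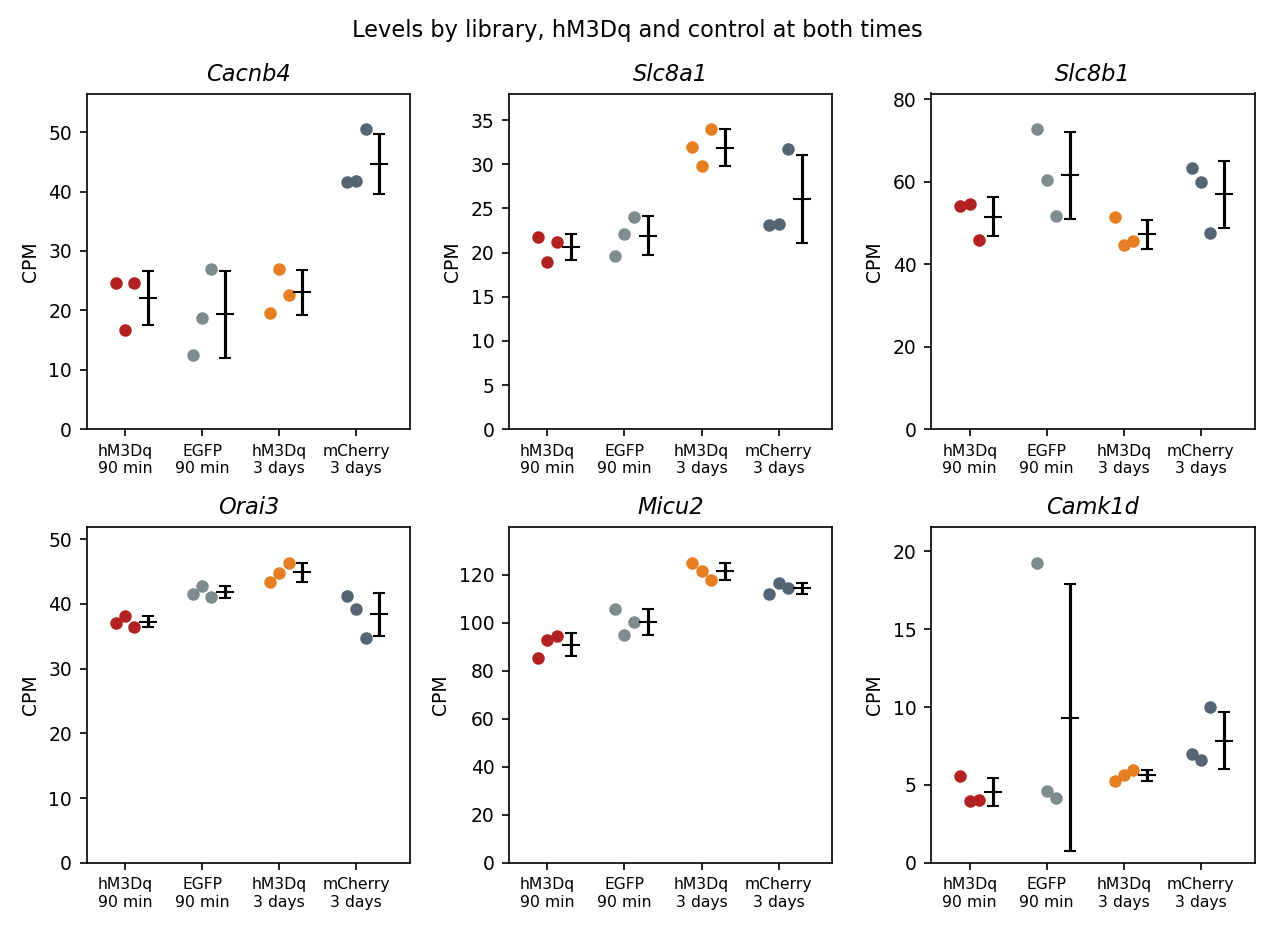
CPM of Cacnb4, Slc8a1, Slc8b1, Orai3, Micu2 and Camk1d in hM3Dq and control libraries at 90 min and at 3 days (points; 3 per group), with mean and SD beside them. Cacnb4 is highest in the mCherry libraries, and Orai3 and Micu2 in hM3Dq libraries lie below their controls at 90 min and above them at 3 days.

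The remaining membrane channels overlapped between hM3Dq and EGFP. Cacnb3, another beta subunit, had 71.8, 67.3 and 64.4 CPM in hM3Dq libraries and 98.6, 69.5 and 62.3 CPM in EGFP libraries, a log2 fold change of -0.18 ± 0.15 that became 0.04 without EGFP 1. At 3 days Cacnb3 had 45.8, 47.2 and 52.3 CPM in hM3Dq libraries and 47.6, 43.8 and 35.5 CPM in mCherry libraries, a log2 fold change of 0.20 ± 0.13. Cacna1c, the pore of an L-type voltage-gated channel, averaged 11.04 ± 3.25 CPM in hM3Dq cells and 12.3 ± 3.31 CPM in EGFP cells.

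At 3 days Cacna1c had 40.2, 41.4 and 40.7 CPM in hM3Dq libraries, each above the mCherry libraries at 38.1, 34.4 and 36.6 CPM (edgeR adjusted p = 0.465). Trpc1, a cation channel linked to store-operated entry, had 19.95, 18.3 and 22.4 CPM in hM3Dq libraries and 17.3, 15.8 and 15.5 CPM in hM4Di libraries, where every hM3Dq library was higher, at 0.32 ± 0.11 (edgeR adjusted p = 0.275). Trpm7, a channel with its own kinase domain, averaged 168 ± 5.33 CPM in hM3Dq cells and 174 ± 12.01 CPM in EGFP cells. At 3 days it had 204, 205 and 208 CPM in hM3Dq libraries and 210.3, 215 and 337 CPM in mCherry libraries, where mCherry 3 was far above the rest.

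For context, 93 of 95 further calcium genes of the same roles, together with calcium-binding proteins of the endoplasmic reticulum, were found in the tables, and 70 were tested at 90 min and 63 at 3 days. EdgeR called 0 of them in each of the 8 comparisons. In edgeR 4 of the 70, or 5.71%, had an unadjusted p below 0.05 for hM3Dq over EGFP (7.94% of all tested genes), and 15 of the 63, or 23.8%, for hM3Dq over mCherry at 3 days (12% of all tested genes). DESeq2 called 1 for hM3Dq over EGFP (1.72% of the genes it tested) and 2 at 3 days (1.22%). At 3 days 20 of the 63, or 31.7%, lay above every mCherry library in every hM3Dq library (12.1% of all tested genes) and 7, or 11.1%, below (13%). Their median log2 fold change was 0.11, against -0.007 over all tested genes, and without mCherry 3 edgeR called 14 of them (9.72% of all tested genes). The roles were uneven: 5 of 13 store protein and 4 of 10 CaM kinase genes lay above without overlap, but only 2 of 16 membrane channel genes. Of those 16 channel genes 12 had a log2 fold change below 0. Whether these shares differ from those in all genes was not tested.

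Of these genes, Hspa5, the chaperone BiP, which binds calcium in the endoplasmic reticulum, had 1053, 1065 and 1168 CPM in hM3Dq libraries and 785, 817 and 842 CPM in EGFP libraries. Every hM3Dq library was higher, at a log2 fold change of 0.43 ± 0.11 (edgeR adjusted p = 0.151, DESeq2 adjusted p = 0.000706). Atp2a3, the SERCA3 pump, had 2.23, 0.786 and 1.02 CPM in hM3Dq libraries and 15.8, 2.23 and 1.67 CPM in EGFP libraries, and its log2 fold change of -2.30 ± 0.86 (edgeR adjusted p = 0.51) became -0.54 without EGFP 1.

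At 3 days Calr, the store protein calreticulin, had 1557, 1639 and 1685 CPM in hM3Dq libraries and 1181, 1309.8 and 1128 CPM in mCherry libraries, a log2 fold change of 0.43 ± 0.09 (edgeR adjusted p = 0.228, DESeq2 adjusted p = 0.00889). Tmem178, a membrane protein known to limit store-operated entry, had 2.77, 3.70 and 3.58 CPM in hM3Dq libraries and 1.39, 1.74 and 1.68 CPM in mCherry libraries, a log2 fold change of 1.06 ± 0.20 (edgeR adjusted p = 0.214, DESeq2 adjusted p = 0.0402). In both genes every hM3Dq library was higher, and both passed in edgeR without mCherry 3, with adjusted p-values of 0.00243 for Calr and 0.0116 for Tmem178.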

How the data were processed

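The authors deposited estimated counts per gene with no normalisation, 12 libraries of the 90-min time in 1 table and 6 of the 3-day time in another. Per the submitters' processing notes, which give no role or order, the tools were Salmon 1.8.0 and fastp 0.23.4 and the build was mm39. How transcripts were summed to genes and whether strand was used are not given in the sources used here, so values of close paralogs and of genes that overlap or lie antisense to each other are uncertain. Symbols were matched by Entrez identifier for 21978 of 22078 genes (99.55%), and unmatched genes held 0.0344% of the counts.

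Counts were rounded to whole numbers. The test was edgeR 4.0.16's quasi-likelihood test (R 4.3.3) on TMM-scaled libraries, with robust moderation and filterByExpr at its defaults, and p-values were adjusted by Benjamini-Hochberg over every tested gene. A joint fit held the 4 groups of 90 min (8 residual degrees of freedom), the 3-day groups over 6 libraries, and the difference between times as an interaction over 12. Standard errors and 95% intervals come from the same fit. CPM use the TMM-scaled library total, and levels per kb use the merged exons of the GRCm38 annotation. The scripts were tested on simulated data. DESeq2 1.42.0, other normalisation and filters, a replicate block and left-out libraries were alternatives.

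The members and lists were chosen with earlier results of these data known, and so were the libraries left out as standing apart. Values per library were to be given for members called in any comparison, for the member of each role with the smallest p in hM3Dq against EGFP and in hM3Dq against mCherry, and for members at or below the floor of 3 counts in a group. Of the further calcium genes, those called were to be named, and otherwise the 2 with the smallest p in each of these comparisons. Other members were chosen for per-library values after their values were seen. Intervals and floors cover counting and replicate error only. Same-numbered libraries correlated at -0.78 to 0.32 at 90 min and at 0.04 to 0.09 at 3 days, so the numbers were not taken to pair libraries.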

Additional observations from a re-analysis of the deposited data

Results flagged for a closer look

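In 2 of the 31 members tested at both times the hM3Dq libraries lay on opposite sides of their controls at the 2 times, without overlap at either. Orai3, a pore of calcium entry, had a log2 fold change of -0.17 at 90 min over EGFP and 0.23 at 3 days over mCherry. Micu2, a regulator of mitochondrial uptake, had -0.14 at 90 min and 0.09 at 3 days. Its margins were small, at 90 min 94.53 CPM in hM3Dq 3 against 94.69 CPM in EGFP 2. At 3 days they were 117.9 CPM in hM3Dq 3 against 116.6 CPM in mCherry 2. By edgeR neither difference between the times passed (adjusted p = 0.277 for Orai3 and 0.519 for Micu2). Of all genes tested at both times 237 of 12726, or 1.86%, lay on opposite sides in this way, against 6.45% of the members. That share rests on these 2 genes, and whether it differs from the share in all genes was not tested.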

How the results depend on the processing

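EdgeR called 0 members under the other normalisation, without the filter and with only the groups compared, and the calls made without single libraries are given above. Genes called in all, in the order hM3Dq, rM3Ds and hM4Di over EGFP, hM3Dq over hM4Di, hM3Dq over rM3Ds, rM3Ds over hM4Di, hM3Dq over mCherry and the difference between times, were 232, 55, 28, 424, 463, 205, 156 and 202 by DESeq2. Members called by DESeq2 were 3, 2 and 1 in hM3Dq over hM4Di, hM3Dq over rM3Ds and hM3Dq over mCherry. With only the groups compared, genes called were 0 for rM3Ds over EGFP, 138 for hM3Dq over rM3Ds and 0 for rM3Ds over hM4Di, and without the filter 1 at 3 days. Without the libraries that stood apart they were 0, 300, 25, 0 and 501 for rM3Ds over EGFP, hM3Dq over hM4Di, hM3Dq over rM3Ds, rM3Ds over hM4Di and the difference, 1257 at 3 days, and members called were 1, 3 and 1 for hM3Dq over hM4Di, at 3 days and for the difference. Leaving out 1 library at a time gave 50 to 103 genes for hM3Dq over EGFP, 2 to 115 for rM3Ds over EGFP, 38 to 106 for hM3Dq over hM4Di, 28 to 590 for hM3Dq over rM3Ds, 0 to 392 for rM3Ds over hM4Di, 0 to 1257 at 3 days and 28 to 170 for the difference. Members called were then 0 to 1 for hM3Dq over hM4Di, 0 to 3 for hM3Dq over rM3Ds, 0 to 1 for rM3Ds over hM4Di and 0 to 3 at 3 days. The cause of these moves was not tested.

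Of 617 log2 fold changes recomputed under an alternative 578 kept their direction and side of the threshold, 21 newly passed and 18 turned sign. Leaving out 1 library, hM3Dq over EGFP ranged over -0.0288 to 0.0397 for Calm3, -0.0923 to 0.17 for Calm2, -0.0098 to 0.16 for Itpr1, -1.39 to 0.052 for Camk1d, -0.31 to 0.0408 for Cacnb3 and -0.0513 to 0.50 for Cacnb4, rM3Ds over EGFP over -0.12 to 1.34 for Camk1d, and hM3Dq over mCherry over -0.14 to 0.0237 for Atp2a2. Without the libraries that stood apart they were -0.0178 for Itpr1, 0.0425 for Camk1d, 0.032 for Cacnb3 and -0.0605 for Cacnb4. For rM3Ds over EGFP the Camk1d value was then -0.14, with rM3Ds 1 as the only rM3Ds library.

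With a replicate block edgeR called 0 members in every comparison, and 66, 4, 61, 53 and 0 genes for hM3Dq over EGFP, rM3Ds over EGFP, hM3Dq over hM4Di, hM3Dq over rM3Ds and rM3Ds over hM4Di. At 3 days all 6 libraries correlated best with their own number, a hint from the data and not the design, against 3 of 12 at 90 min. For hM3Dq over EGFP the 95% intervals were widest for Camk1d, Camk2b and Orai1, and how much of this is counting error and how much spread between libraries was not tested.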

Other observations

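Some members differed more between the 2 tables than between groups within a table. Cacna1c, the L-type channel pore, lay at 34.4 to 41.4 CPM in the 3-day libraries and at 7.43 to 17.2 CPM in the 90-min libraries. The plasma membrane pump Atp2b4 lay at 45.5 to 58.5 CPM in the 3-day libraries and at 100.3 to 235 CPM in the 90-min libraries. The ranges did not overlap in either gene, nor in other members, among them Camkk2, Camk2g, Atp2b1, Atp2c1, Trpm7, Micu2 and Cacnb3. How many of all genes lay apart in this way was not counted. The times were in separate tables, each scaled with its own TMM factors, and had different control proteins, so no test was made.

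Tmem178, a limiter of store-operated entry, had 10.3 CPM in EGFP 1, 24.4 CPM in rM3Ds 2 and 16.7 CPM in rM3Ds 3, the libraries that stood apart, against 2.25 to 3.45 CPM in the other 9 libraries at 90 min. Of all tested genes 10.6% lay above the other 9 in these 3 libraries in the same way. Atp2a3, the SERCA3 pump, had 15.8 CPM in EGFP 1 and 2.99 and 4.05 CPM in rM3Ds 2 and rM3Ds 3, against 0.786 to 3.92 CPM in the other 9 libraries at 90 min.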
